A study of Mus musculus with 24 samples.

Results

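The genes described here are 8 that mark Schwann cells or take part in making myelin: *Sox10*, *Pou3f1*, *Egr2*, *Ngfr*, *Erbb3*, *Pmp22*, *Mbp* and *S100b*. They were chosen with earlier results of these data known and were taken by gene symbol. Each matched 1 identifier, and they are 8 of the 49315 genes counted. All 8 entered the test, although *S100b* and *Egr2* are too low to judge in most comparisons.

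RNA was sequenced from MS03 cells, an immortalized murine Schwann cell line from the *Nf2* flox/flox model in which *Nf2* was deleted by Cre infection, so that every group, control included, is *Nf2*-/-. Cells were kept for 24 hours in DMSO, in the focal adhesion kinase (FAK) inhibitors defactinib, VS-4718, GSK2256098 or IN10018 at 1 μM each, or in the FAK-directed degraders PROTAC FAK degrader 1 at 1 μM, GSK215 at 0.1 μM or BSJ-04-0146 at 0.1 μM. FAK, encoded by *Ptk2*, is a kinase of cell-matrix adhesions, and a PROTAC links its target to an E3 ubiquitin ligase so that the protein is degraded. The 8 groups held 3 libraries each, 24 in all, labelled as biological replicates. All are of this 1 line in culture, and all 7 drugs were compared with the same 3 DMSO libraries. The comparisons ask how far each drug moved these genes and whether drugs given at the same dose differed.

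Schwann cells are the glia of peripheral nerve. SOX10 is the transcription factor that the lineage needs at every stage, POU3F1 (also called Oct6 or SCIP) marks the promyelinating stage, and EGR2 (Krox20) acts with SOX10 to switch on the genes of compact myelin. Neuregulin from the axon signals through ErbB2 and ErbB3, the p75 neurotrophin receptor encoded by *Ngfr* is high in immature and injured Schwann cells, and *Pmp22* and *Mbp* encode proteins of the finished sheath.

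Each library held between 14472462 and 27449516 counted reads, and the degrader libraries were shallower (median 17794597 over 9) than the inhibitor libraries (median 23056014 over 12). Levels are counts scaled to the size of the library (CPM) with the standard deviation (SD) over 3 libraries. Changes are log2 fold changes from edgeR with their standard error (SE), and a gene is said to have risen or fallen only where its *P* value, adjusted over 16070 tested genes, was under 0.05. In bulk libraries a change in the share of cells that express a gene cannot be told apart from a change in RNA per cell.

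Under DMSO the genes differed widely once their levels were divided by exon length. *Sox10* had 6.58 ± 0.104 CPM per kilobase (SD, n = 3) and *Pmp22* 5.34 ± 0.502. *Ngfr* followed at 3.03, *Mbp* at 1.82, *Pou3f1* at 1.66 and *Erbb3* at 0.578 CPM per kilobase. *S100b*, the classical cytoplasmic Schwann cell marker, had 0.0902 and *Egr2* 0.0446 CPM per kilobase, so that RNA of the lineage factor *Sox10* was far more abundant than that of the myelin regulator *Egr2*.

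*Sox10*, on the minus strand at chr15:79154908-79165240 (GRCm38), was higher with 5 of the 7 drugs and lower with PROTAC FAK degrader 1. The DMSO libraries had 19.7, 20.3 and 20.3 CPM. GSK215 gave 91.7, 98.5 and 103 CPM, and BSJ-04-0146 gave 90.8, 96.9 and 105 CPM. None of these 6 libraries overlapped DMSO. The log2 fold change was 2.28 with each (SE 0.063, edgeR adjusted *P* = 5.26e-28 and 5.35e-28), a 4.87-fold and a 4.85-fold rise. VS-4718 gave 48.7, 50.1 and 42.2 CPM of *Sox10*, a log2 fold change of 1.22 (SE 0.066, adjusted *P* = 4.82e-18). With defactinib the libraries had 27.2, 30.4 and 30.9 CPM (log2 fold change 0.56, SE 0.071, adjusted *P* = 1.83e-07). With GSK2256098 they had 25.4, 28.7 and 29.0 CPM (0.46, SE 0.072, adjusted *P* = 1.28e-05). No library of these 3 inhibitors overlapped the DMSO libraries. IN10018 gave 22.7, 21.6 and 23.5 CPM, also above every DMSO library, but the log2 difference of 0.17 (95% confidence interval 0.02 to 0.32) did not pass (adjusted *P* = 0.132). The libraries of PROTAC FAK degrader 1 had 11.3, 12.4 and 12.8 CPM. *Sox10* fell by 0.73 on the log2 scale (SE 0.086, adjusted *P* = 1.18e-09), to 60.4% of the DMSO level.

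*Pou3f1* (chr4:124656807-124660655, plus strand), the POU-domain factor of promyelinating cells, followed another order. DMSO libraries had 6.83, 6.58 and 5.77 CPM. BSJ-04-0146 gave 9.61, 9.32 and 10.9 CPM, a log2 fold change of 0.63 (SE 0.112, adjusted *P* = 6.52e-06). GSK215 gave 5.84, 7.53 and 7.90 CPM, which overlapped DMSO, with a log2 difference of 0.17 (95% confidence interval −0.07 to 0.40, adjusted *P* = 0.242). Between these 2 degraders *Pou3f1* was higher with BSJ-04-0146 by 0.47 on the log2 scale (SE 0.115, adjusted *P* = 0.00231). With PROTAC FAK degrader 1 the level was 3.68, 2.92 and 2.94 CPM, below every DMSO library. *Pou3f1* fell by 1.00 on the log2 scale with it (SE 0.135, adjusted *P* = 2.80e-08), to 50.1% of DMSO.

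With the 4 inhibitors the log2 differences of *Pou3f1* from DMSO lay between 0.29 and 0.41. Defactinib gave 7.41, 9.33 and 8.78 CPM (log2 fold change 0.41, SE 0.109, adjusted *P* = 0.00490). VS-4718 gave 9.22, 7.07 and 7.60 CPM (0.32, adjusted *P* = 0.0170), and GSK2256098 gave 7.77, 8.56 and 8.09 CPM (0.35, adjusted *P* = 0.0295). The last 2 calls did not hold when some single libraries were left out. VS-4718 no longer passed without DMSO replicate 3 (0.24, adjusted *P* = 0.123) or VS-4718 replicate 1 (0.19, adjusted *P* = 0.226). GSK2256098 no longer passed without DMSO replicate 2 (0.37, adjusted *P* = 0.0595), DMSO replicate 3 (0.28, 0.165), GSK2256098 replicate 2 (0.31, 0.130) or GSK2256098 replicate 3 (0.35, 0.0763). IN10018 gave 7.80, 7.95 and 7.67 CPM of *Pou3f1*, a log2 difference of 0.29 (95% confidence interval 0.06 to 0.52) that did not pass (adjusted *P* = 0.0836). Exons of *Pou3f1* overlap the antisense gene *Gm2164*, which had 0 to 6 counts in any of the 24 libraries against 56 to 242 for *Pou3f1*.

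*Ngfr* (chr11:95568818-95587735, minus strand) had a wider range of log2 fold change than any of the other 7 genes. DMSO libraries had 9.63, 10.5 and 11.1 CPM. GSK215 gave 66.3, 64.0 and 63.4 CPM, a 6.17-fold rise (log2 fold change 2.63, SE 0.065, adjusted *P* = 2.45e-29). BSJ-04-0146 gave 48.3, 52.4 and 51.5 CPM (2.28, SE 0.067, adjusted *P* = 3.85e-27). The 2 degraders did not overlap, and *Ngfr* was lower with BSJ-04-0146 by 0.35 on the log2 scale (SE 0.055, adjusted *P* = 7.07e-06). VS-4718 gave 37.5, 36.2 and 32.4 CPM, a log2 fold change of 1.76 (SE 0.068, adjusted *P* = 1.11e-22). Defactinib gave 16.1, 16.4 and 16.6 CPM (0.65, adjusted *P* = 4.08e-08). GSK2256098 gave 17.5, 17.9 and 18.2 CPM (0.77, adjusted *P* = 7.78e-10). All 9 libraries of these inhibitors were above DMSO. IN10018 gave 9.65, 8.66 and 10.2 CPM, overlapping DMSO, a log2 difference of −0.14 (95% confidence interval −0.31 to 0.04, adjusted *P* = 0.325). The lowest libraries were those of PROTAC FAK degrader 1, with 4.73, 4.23 and 5.83 CPM. *Ngfr* fell by 1.09 on the log2 scale with it (SE 0.100, adjusted *P* = 2.23e-12), to 47.1% of DMSO.

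Because *Ngfr* had the widest range on the log2 scale, the 250 bases before its RefSeq start site are shown (GRCm38.p6, chr11:95587699-95587948, minus strand, written 5′ to 3′). Capitals mark the GC box GGGCGG on either strand, the hexamer that SP1-type factors bind.

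*Ngfr* upstream: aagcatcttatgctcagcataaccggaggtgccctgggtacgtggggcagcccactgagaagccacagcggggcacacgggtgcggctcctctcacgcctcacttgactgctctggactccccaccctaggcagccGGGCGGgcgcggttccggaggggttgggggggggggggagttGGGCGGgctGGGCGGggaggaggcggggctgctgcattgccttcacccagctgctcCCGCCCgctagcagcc

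The window is 70.4% G and C, against a median of 52.4% over 32851 RefSeq promoter windows of the same length. It held 4 GC boxes, and 32.7% of all windows held at least 1. Both strands were also searched for ACAAAG or ACAATG (bound by SOX factors), GGAATG (TEAD), TGACTCA or TGAGTCA (AP-1), GCGTGGGCG (EGR) and CACGTG (E-box), found in 25.2%, 12.6%, 4.46%, 0.536% and 6.02% of all windows. None of these letters occurred in the *Ngfr* window, which says only that they are not in these 250 bases. A RefSeq window was at hand for 4 of the 8 genes, *Ngfr*, *Pmp22*, *S100b* and *Egr2*.

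*Erbb3* (chr10:128567523-128589652, minus strand), the neuregulin receptor that signals as a partner of ErbB2, rose with 6 of the 7 drugs. DMSO libraries had 3.89, 3.50 and 3.05 CPM. GSK215 gave 21.7, 20.7 and 18.9 CPM (log2 fold change 2.55, SE 0.101, adjusted *P* = 5.07e-23). BSJ-04-0146 gave 17.9, 17.8 and 18.3 CPM (2.37, SE 0.104, adjusted *P* = 1.01e-21). Both sets stood above DMSO. VS-4718 gave 10.9, 9.17 and 10.0 CPM (1.53, SE 0.108, adjusted *P* = 1.08e-14). Defactinib gave 6.59, 6.46 and 8.15 CPM (1.03, SE 0.116, adjusted *P* = 1.51e-08), and GSK2256098 gave 5.81, 6.15 and 5.92 CPM (0.78, adjusted *P* = 1.05e-05). Where *Sox10* and *Ngfr* fell, *Erbb3* did not. Treatment with PROTAC FAK degrader 1 gave 5.56, 4.96 and 5.57 CPM, all above DMSO, a rise of 0.63 on the log2 scale (SE 0.126, adjusted *P* = 3.14e-05). IN10018 gave 4.29, 3.27 and 3.83 CPM, overlapping DMSO, with a log2 difference of 0.13 (95% confidence interval −0.14 to 0.40, adjusted *P* = 0.584).

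*Pmp22* (chr11:63128982-63159547, plus strand), a membrane protein of compact myelin that many other cells also make, rose with 4 drugs. DMSO libraries had 12.8, 11.3 and 13.6 CPM. GSK215 gave 32.6, 32.5 and 30.5 CPM (log2 fold change 1.34, SE 0.075, adjusted *P* = 2.03e-18), and BSJ-04-0146 gave 27.5, 33.0 and 28.8 CPM (1.25, SE 0.076, adjusted *P* = 2.66e-17). The rise was about 2.54-fold and 2.38-fold, less than for *Sox10*, *Ngfr*, *Erbb3* and *Mbp* with the same drugs. VS-4718 gave 18.9, 16.5 and 17.5 CPM (0.50, adjusted *P* = 1.73e-06), and GSK2256098 gave 17.0, 17.7 and 18.6 CPM (0.50, adjusted *P* = 1.46e-05). Defactinib gave 14.8, 14.4 and 13.9 CPM, just above DMSO, a log2 difference of 0.19 (95% confidence interval 0.03 to 0.36) that did not pass (adjusted *P* = 0.0809). It passed without DMSO replicate 3 (0.25, adjusted *P* = 0.0450).

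The lowest group means of *Pmp22* were those of IN10018 (10.6 CPM) and PROTAC FAK degrader 1 (11.4 CPM). IN10018 gave 11.7, 10.6 and 9.52 CPM, a log2 difference of −0.24 (adjusted *P* = 0.0546). It passed as a decrease without DMSO replicate 2 (−0.32, adjusted *P* = 0.0233) or IN10018 replicate 1 (−0.32, adjusted *P* = 0.0275). PROTAC FAK degrader 1 gave 11.6, 11.7 and 10.9 CPM, a log2 difference of −0.14 (95% confidence interval −0.31 to 0.04, adjusted *P* = 0.160), and it passed without DMSO replicate 2 (−0.21, adjusted *P* = 0.0452). Both sets overlapped DMSO.

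*Pmp22* is transcribed from alternative start sites, and RefSeq lists 4 windows for it. Starts 1 and 4 are shown, on the plus strand of GRCm38.p6 at chr11:63128732-63128981 and chr11:63132553-63132802, while gene counts sum over all 4. Of the 4 windows only that of start 1 held GGAATG, which 12.6% of all RefSeq windows held. The window of start 2 held GC boxes, and that of start 3 held none of the words searched for. Capitals mark a TEAD hexamer before start 1 (GGAATG, read on the minus strand, 173 bases before the start site) and GC boxes before start 4.

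*Pmp22* start 1: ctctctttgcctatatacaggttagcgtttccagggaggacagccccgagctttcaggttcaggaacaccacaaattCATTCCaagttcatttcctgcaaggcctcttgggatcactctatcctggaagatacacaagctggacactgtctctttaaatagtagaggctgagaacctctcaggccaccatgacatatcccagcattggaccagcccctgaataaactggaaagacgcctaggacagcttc
*Pmp22* start 4: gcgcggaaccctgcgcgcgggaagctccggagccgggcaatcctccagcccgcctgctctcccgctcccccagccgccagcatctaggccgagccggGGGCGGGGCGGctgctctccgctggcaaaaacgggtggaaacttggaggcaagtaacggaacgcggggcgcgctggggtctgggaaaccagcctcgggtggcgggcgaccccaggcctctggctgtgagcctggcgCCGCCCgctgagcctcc

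The 2 windows differ in base composition, 48.8% G and C before start 1 and 73.6% before start 4. The second of these held 3 GC boxes, 2 of which overlap. Which start these cells used was not measured.

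*Mbp* (chr18:82475146-82585637, plus strand), the basic protein that holds the cytoplasmic faces of the myelin membrane together, was the only 1 of the 8 genes that rose with all 7 drugs. The gene has 16 annotated transcripts, including the Golli forms that are made outside myelin, and a gene count does not separate them. DMSO libraries had 15.9, 16.1 and 14.3 CPM. GSK215 gave 68.4, 68.9 and 67.7 CPM (log2 fold change 2.15, SE 0.055, adjusted *P* = 6.23e-29), and BSJ-04-0146 gave 64.5, 65.6 and 70.5 CPM (2.12, SE 0.056, adjusted *P* = 1.06e-28). PROTAC FAK degrader 1 gave 29.7, 30.2 and 30.4 CPM, a 1.95-fold rise (0.97, SE 0.061, adjusted *P* = 3.40e-17). VS-4718 gave 29.2, 30.0 and 29.2 CPM, a 1.91-fold rise (0.93, SE 0.059, adjusted *P* = 5.47e-16). The 2 sets of libraries lay in the same narrow range. Defactinib gave 21.2, 20.5 and 20.5 CPM (0.43, adjusted *P* = 2.60e-06). GSK2256098 gave 21.5, 18.7 and 20.2 CPM (0.38, adjusted *P* = 3.99e-05), and IN10018 gave 17.9, 20.3 and 20.6 CPM (0.35, adjusted *P* = 2.20e-04). No drug library overlapped the DMSO libraries, and *Mbp* was the only 1 of the 8 genes that passed with IN10018.

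**Figure D1:**
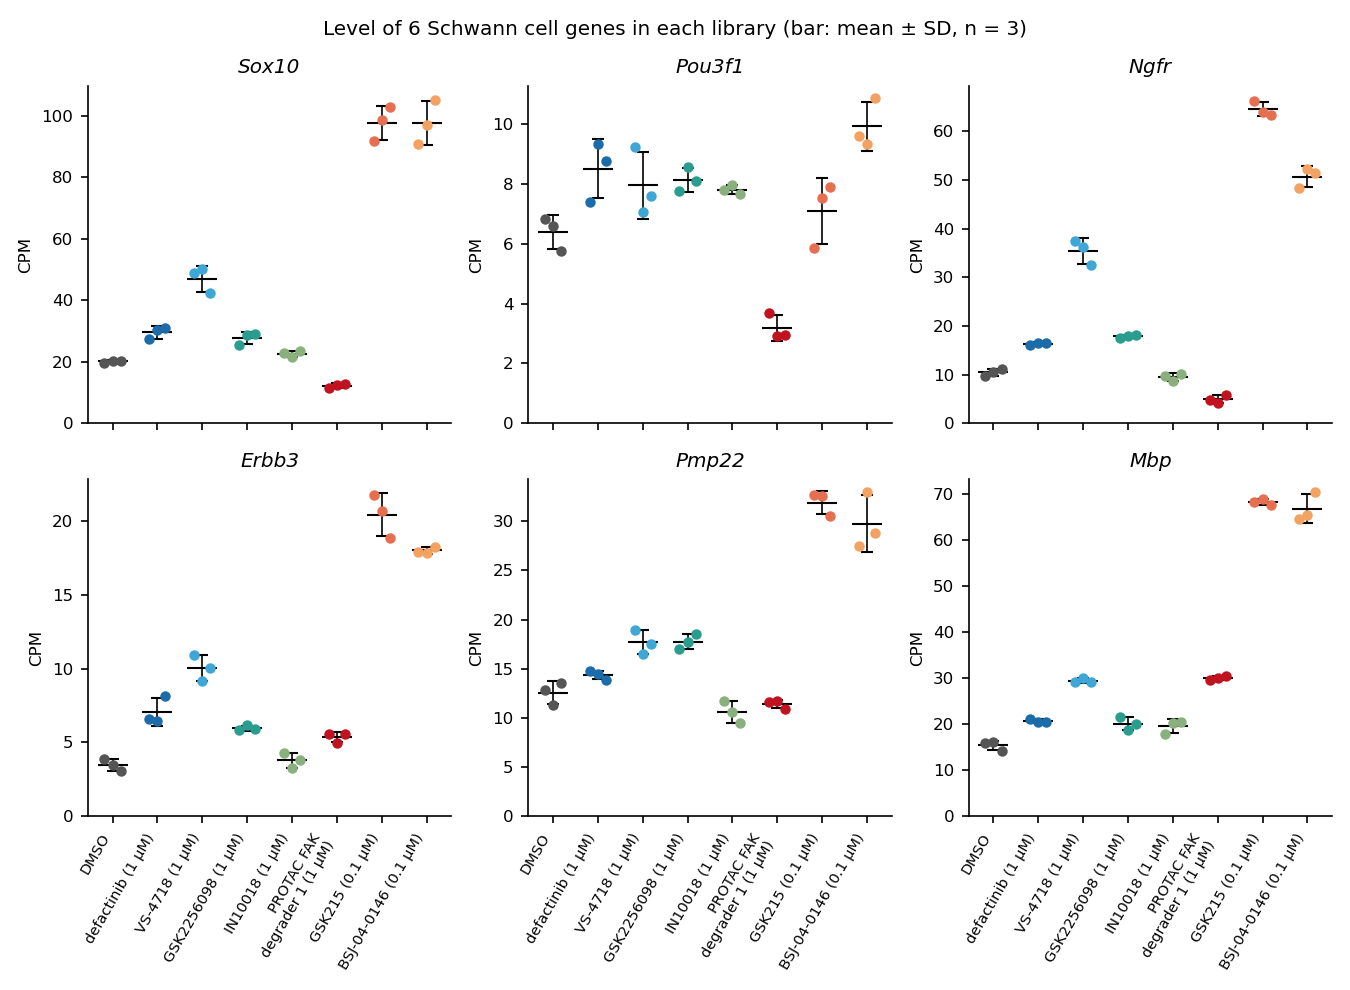
Level of 6 of the genes in CPM (vertical axis, from 0) in each library (points) of the 8 groups, with the mean and SD (bars, n = 3). GSK215 and BSJ-04-0146 stand highest for *Sox10*, *Ngfr*, *Erbb3*, *Pmp22* and *Mbp*, while PROTAC FAK degrader 1 is lowest for *Sox10*, *Pou3f1* and *Ngfr* and reaches 30.1 CPM of *Mbp*.

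*S100b* and *Egr2* were counted too rarely for their levels to be followed library by library. *S100b* (chr10:76253853-76261159, plus strand), a calcium-binding protein, had 1 to 18 counts per library. *Egr2* (chr10:67535475-67542188, plus strand) had 1 to 15. Both passed the filter on low counts through the groups where they were highest, so the test with that filter depends in part on the values it compares, and the fit without any filter is given for them. With the 3 libraries of a group summed, *S100b* had 10 counts under DMSO, 0.137 CPM with a 95% exact Poisson interval of 0.0657 to 0.252. It had 43 counts with GSK215, 0.793 CPM (0.574 to 1.07), and 28 with BSJ-04-0146, 0.535 CPM (0.355 to 0.773). Neither interval overlapped that of DMSO. With the other 5 drugs *S100b* summed to 12 to 17 counts, and all of these intervals overlapped the DMSO interval. In the edgeR fit without a filter the log2 fold change of *S100b* was 2.47 with GSK215 (adjusted *P* = 2.07e-05) and 1.90 with BSJ-04-0146 (adjusted *P* = 0.00369). The second rested on BSJ-04-0146 replicate 1, with 14 of the 28 counts, and in the filtered fit it did not pass without that library (1.49, adjusted *P* = 0.0642).

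*Egr2* summed to 11 counts under DMSO, 0.151 CPM (0.0752 to 0.270), and to 29 with PROTAC FAK degrader 1, 0.484 CPM (0.324 to 0.694). Its 3 libraries with that degrader had 14, 5 and 10 counts against 3, 3 and 5 under DMSO, so that the groups touched at 5 counts but not in CPM. Without a filter the log2 fold change of *Egr2* was 1.63 (edgeR adjusted *P* = 0.0121). The filtered fit gave 1.64, and there it did not pass without DMSO replicate 2 (1.46, adjusted *P* = 0.0522) or PROTAC FAK degrader 1 replicate 1 (1.35, adjusted *P* = 0.0812). With GSK215 the counts were 4, 3 and 15, and the log2 difference did not pass, at 1.36 without a filter (adjusted *P* = 0.0734) and 1.38 with it (0.0545). In the filtered fit it passed without GSK215 replicate 1 (1.57, adjusted *P* = 0.0445) or replicate 2 (1.76, adjusted *P* = 0.0182), which leaves the library of 15 counts in the group. With the other 5 drugs *Egr2* summed to 11 to 20 counts, and their Poisson intervals overlapped that of DMSO. The Poisson intervals of both genes cover counting error only. The edgeR 95% confidence interval of *Egr2* with BSJ-04-0146 in the filtered fit, which includes the spread between libraries, ran from −0.97 to 1.89 on the log2 scale.

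**Figure D2:**
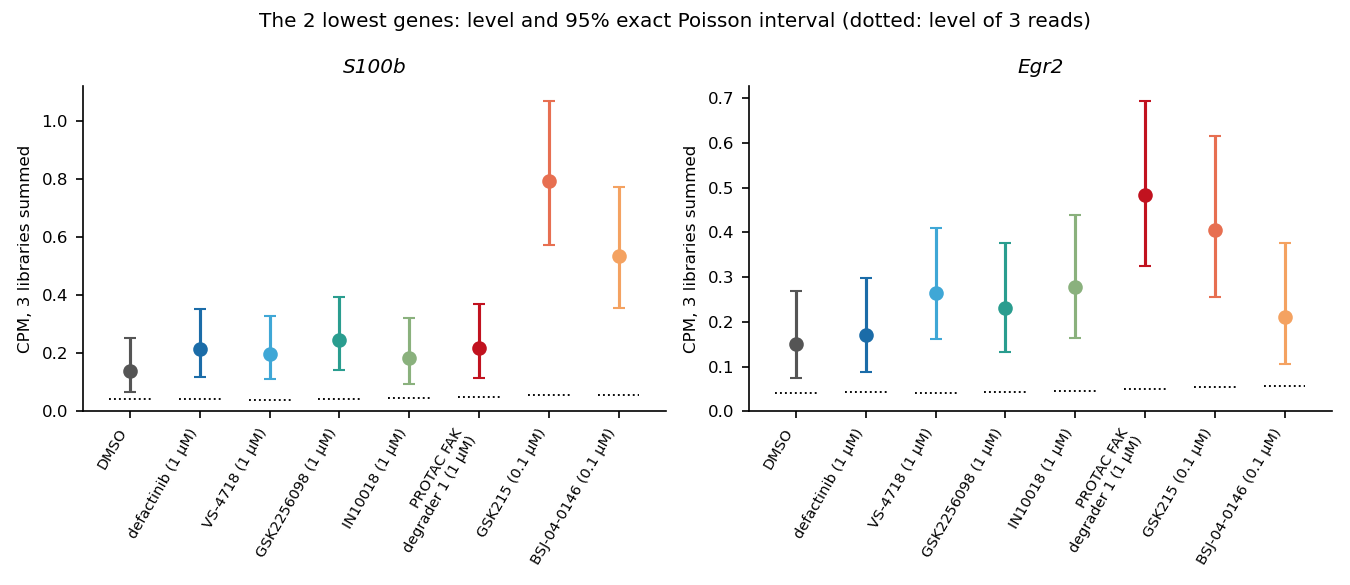
Level of *S100b* and *Egr2* in CPM with the counts of 3 libraries summed (points) and the 95% exact Poisson interval (bars), for the 8 groups. Dotted lines mark the level that 3 reads would give. *S100b* reaches 0.793 CPM with GSK215 against 0.137 CPM with DMSO.

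The 6 genes other than *S100b* and *Egr2* were read against all genes tested. Since they were chosen with earlier results of these data known, the shares of all genes give a scale and not a test. Defactinib raised 5 of the 6 (*Sox10*, *Pou3f1*, *Ngfr*, *Erbb3* and *Mbp*) and lowered none, where 11.4% of all tested genes were called higher and 11% lower. VS-4718 raised 6 and lowered none, with 20.4% of all genes higher and 18.9% lower. GSK2256098 also raised 6, with 6.36% higher and 6.09% lower. GSK215 raised 5, all but *Pou3f1*, with 27.4% higher and 27.2% lower. BSJ-04-0146 raised 6, with 27.7% higher and 26.9% lower. IN10018 raised 1, *Mbp*, with 6.44% higher and 6.85% lower. PROTAC FAK degrader 1 raised 2 (*Mbp* and *Erbb3*) and lowered 3 (*Sox10*, *Ngfr* and *Pou3f1*), with 34.1% of all genes higher and 32.7% lower. The median log2 fold change of the 6 was 0.49 with defactinib, 1.08 with VS-4718, 0.48 with GSK2256098, 0.15 with IN10018, −0.43 with PROTAC FAK degrader 1, 2.22 with GSK215 and 2.20 with BSJ-04-0146. The median of all tested genes lay between −0.0044 and 0.021, near 0 because the scaling used (TMM) centres most genes there. With libraries scaled by their totals alone it was 0.143 with GSK215 and 0.126 with BSJ-04-0146. In the test of any difference among the 8 groups the 6 passed, as did 84% of all genes. Over all 8 genes the counts differ only by the calls of the 2 low ones, *S100b* with GSK215, with BSJ-04-0146 and in the test of any difference, and *Egr2* with PROTAC FAK degrader 1. The median over the 8 with PROTAC FAK degrader 1 was 0.25, of the opposite sign to that over the 6.

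**Figure D3:**
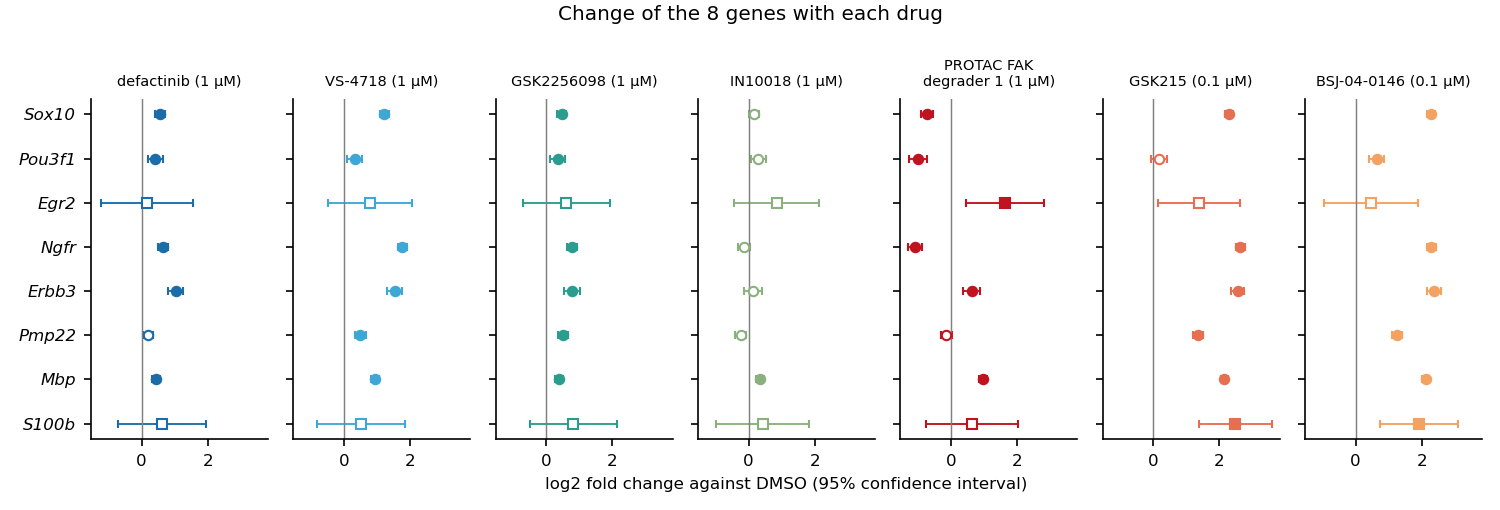
Log2 fold change against DMSO (horizontal axis) with its 95% confidence interval for the 8 genes, 1 panel per drug. Filled symbols passed the test, open symbols did not, and squares mark *S100b* and *Egr2*, whose intervals are wide and whose values here are from the fit with the low-count filter, through which they passed by the groups where they were highest. The points of PROTAC FAK degrader 1 lie on both sides of 0, from −1.09 for *Ngfr* to 0.97 for *Mbp* among the other 6 genes.

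Among the 4 inhibitors at 1 μM, VS-4718 gave the highest *Sox10*, *Ngfr*, *Erbb3* and *Mbp*. Against defactinib 5 of the 6 were higher with VS-4718, where 34% of all genes were called in either direction. *Ngfr* differed by 1.11 (SE 0.063), *Sox10* by 0.67, *Mbp* by 0.51, *Erbb3* by 0.50 and *Pmp22* by 0.30 on the log2 scale, with edgeR adjusted *P* of 0.00175 or less. The *Pmp22* difference did not pass with all libraries thinned to the smallest total (0.15, adjusted *P* = 0.182). *Pou3f1* differed by −0.09 (95% confidence interval −0.30 to 0.12, adjusted *P* = 0.561). GSK2256098 was below VS-4718 for *Ngfr* (−0.98), *Sox10* (−0.76), *Erbb3* (−0.75) and *Mbp* (−0.55), 4 of the 6 against 27.1% of all genes. *Pmp22* was at nearly the same level with both, a log2 difference of 0.005 (95% confidence interval −0.145 to 0.155, adjusted *P* = 0.972). Defactinib and GSK2256098 had the fewest calls of the 6 pairs of inhibitors. Only *Pmp22* passed between them, higher with GSK2256098 by 0.31 (adjusted *P* = 0.00621), where 11.5% of all genes were called. The log2 differences of *Sox10*, *Ngfr*, *Erbb3*, *Mbp* and *Pou3f1* between GSK2256098 and defactinib were −0.09, 0.13, −0.25, −0.04 and −0.06, and none passed. The 95% confidence interval of *Erbb3* ran from −0.46 to −0.04 (adjusted *P* = 0.125) and that of *Pou3f1* from −0.28 to 0.15. The libraries of the 2 drugs did not overlap for *Erbb3* and *Ngfr*.

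IN10018 gave the lowest *Sox10*, *Ngfr*, *Erbb3* and *Pmp22* of the 4 inhibitors. *Sox10*, *Ngfr*, *Erbb3* and *Pmp22* were lower with IN10018 than with defactinib by log2 differences of −0.38, −0.79, −0.90 and −0.44, 4 of the 6 against 34.5% of all genes. The same 4 were lower than with GSK2256098 (−0.29, −0.91, −0.65 and −0.74), against 20.9% of all genes. Against VS-4718 those 4 and *Mbp* were lower, 5 of the 6 against 40.9% of all genes, with −1.90 for *Ngfr* the largest of the differences. The means of *Mbp* (19.6 CPM) and *Pou3f1* (7.81 CPM) were also lowest with IN10018, but most of these differences did not pass. For *Mbp* the log2 difference was −0.08 between IN10018 and defactinib (95% confidence interval −0.21 to 0.04, adjusted *P* = 0.341) and −0.04 between IN10018 and GSK2256098 (−0.16 to 0.09, adjusted *P* = 0.755). *Pou3f1* passed in none of the 6 pairs of inhibitors.

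PROTAC FAK degrader 1, at the same 1 μM, was lower than each inhibitor for 3 of the genes, while *Mbp* was higher than with 3 of the inhibitors. *Sox10*, *Ngfr* and *Pou3f1* were lower with it than with all 4, by log2 differences of −0.90 to −1.95 for *Sox10*, −0.95 to −2.84 for *Ngfr* and −1.29 to −1.41 for *Pou3f1*. *Mbp* was higher than with defactinib (0.54), GSK2256098 (0.58) and IN10018 (0.62), and differed from VS-4718 by 0.03 (95% confidence interval −0.08 to 0.14, adjusted *P* = 0.638). *Erbb3* lay between the inhibitors, below VS-4718 (−0.91) and defactinib (−0.40, adjusted *P* = 0.00152), above IN10018 (0.50, adjusted *P* = 7.49e-04) and not called against GSK2256098 (−0.15, 95% confidence interval −0.38 to 0.08). *Pmp22* was lower than with defactinib (−0.33), VS-4718 (−0.63) and GSK2256098 (−0.64) and differed from IN10018 by 0.11 (95% confidence interval −0.08 to 0.29, adjusted *P* = 0.316). *Egr2* passed against defactinib (1.47 without a filter, adjusted *P* = 0.0237), but in the filtered fit not without defactinib replicate 2 (1.07, adjusted *P* = 0.115), PROTAC FAK degrader 1 replicate 1 (1.19, 0.118) or PROTAC FAK degrader 1 replicate 3 (1.41, 0.0523). Against GSK2256098 *Egr2* did not pass (1.03, adjusted *P* = 0.132 without a filter), but in the filtered fit it did without GSK2256098 replicate 3 (1.47, 0.0462) or PROTAC FAK degrader 1 replicate 2 (1.32, 0.0427). Leaving out *S100b* and *Egr2*, 6 genes passed against defactinib and 5 each against VS-4718, GSK2256098 and IN10018, where 68.9%, 68.9%, 67.6% and 63.5% of all genes were called.

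GSK215 and BSJ-04-0146, both at 0.1 μM, differed in 2 of the 6 genes, *Ngfr* and *Pou3f1* as given above, where 22.5% of all genes were called. *Sox10* differed by −0.00 on the log2 scale (95% confidence interval −0.11 to 0.11, adjusted *P* = 0.970) and *Mbp* by −0.03 (−0.13 to 0.06, adjusted *P* = 0.699). *Pmp22* differed by −0.10 (−0.24 to 0.04) and *Erbb3* by −0.18 (−0.34 to −0.01, adjusted *P* = 0.123). No test was made between the 0.1 μM degraders and the 1 μM drugs, since their doses differ, and levels of both shown side by side differ in dose as well as drug. In all, 11 pairs of drugs were compared at matched doses, with *P* values adjusted over all genes within each pair and not over the pairs. With 3 libraries against 3, an exact permutation test of 1 gene cannot go below *P* = 0.10, the value it gave for each gene whose groups did not overlap.

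The reads of *Mbp* and *Erbb3* per read of *Sox10* were highest with PROTAC FAK degrader 1. There were 0.767 ± 0.055 *Mbp* reads per *Sox10* read under DMSO (SD, n = 3), and with the other 6 drugs, 2 of them at 0.1 μM, the mean ran from 0.630 with VS-4718 to 0.868 with IN10018, although *Sox10* itself ran from 22.6 to 97.6 CPM across them. With PROTAC FAK degrader 1 the 3 libraries had between 2.37 and 2.63 *Mbp* reads per *Sox10* read, a mean of 2.48 ± 0.133, and the highest value elsewhere was 0.939. The ratio of *Erbb3* to *Sox10* was 0.442 ± 0.047 with PROTAC FAK degrader 1, from 0.399 to 0.492. It was 0.173 ± 0.023 under DMSO and at most 0.263 in any other library. The ratio of *Ngfr* to *Sox10* did not stand apart in this way, at 0.405 ± 0.059 with PROTAC FAK degrader 1, 0.419 ± 0.016 with IN10018 and 0.754 ± 0.026 with VS-4718. These pairs were chosen after their values were seen, so no test is given.

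**Figure D4:**
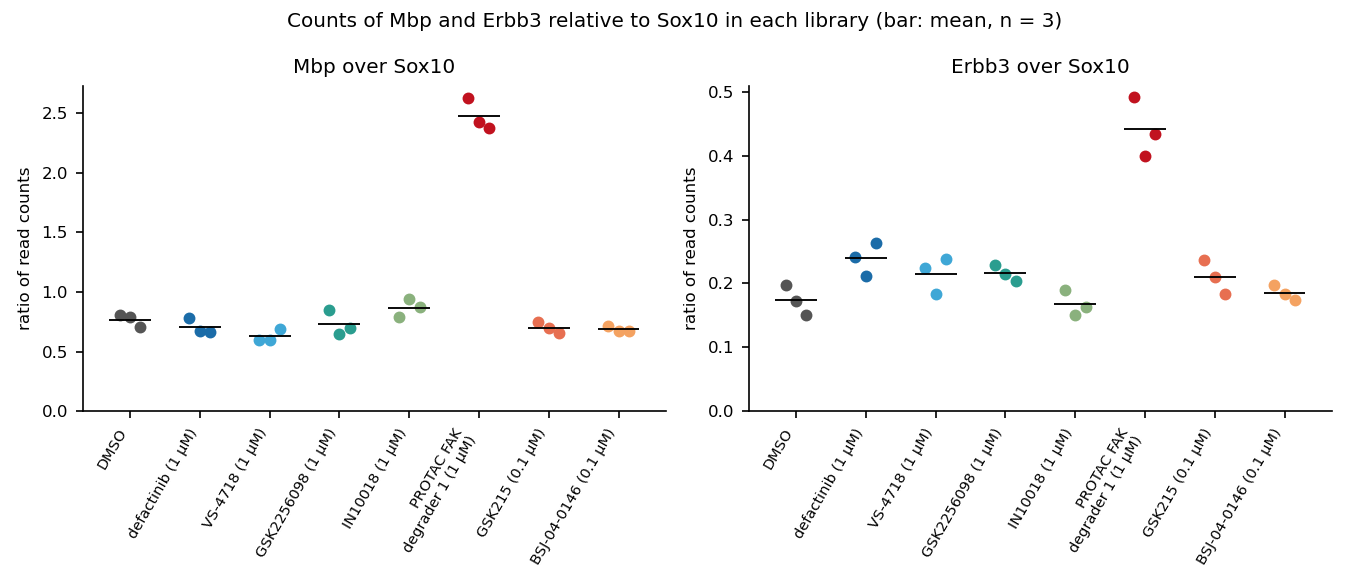
Read counts of *Mbp* (left) and *Erbb3* (right) divided by those of *Sox10* in each library (points), with group means (bars, n = 3). The 3 libraries of PROTAC FAK degrader 1 lie at 2.37 to 2.63 for *Mbp*, while every other library is at or below 0.939.

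Over the 8 group means of log2 CPM, which share the DMSO control and the same cells, *Sox10* went with *Ngfr* (Pearson *r* = 0.98), *Pmp22* (0.94) and *Erbb3* (0.92), and less with *Mbp* (0.81) and *Pou3f1* (0.65). *Mbp* went with *Erbb3* (0.93) and hardly with *Pou3f1* (0.13). Among 9820 better expressed genes, those whose group means were most like a gene of the 8 were *Plxnb1* and *Sh3bp2* for *Sox10* (both 0.99), *Baz2b* and *Maged1* for *Ngfr* (both 1.00), *Cpe* and *Itm2c* for *Erbb3* (1.00 and 0.99), *Slc43a2* and *Scube3* for *Pmp22* (0.99 and 0.98), *Mettl7a1* and *Csad* for *Mbp* (both 0.99), and *Tedc1* for *Pou3f1* (0.99). The size of change was often smaller, as for *Baz2b*, whose log2 fold change was 0.34 with GSK215. These are descriptions over 8 means, without a test.

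Other genes of the lineage are given for context, in lists also chosen with earlier results of these data known. Their counts beside the shares of all genes are descriptions and not tests. Of 20 listed regulators of Schwann cells, 19 were tested, and GSK215 raised 13 and lowered 4 (27.4% and 27.2% of all genes), BSJ-04-0146 raised 12 and lowered 2 (27.7% and 26.9%), and PROTAC FAK degrader 1 raised 10 and lowered 7 (34.1% and 32.7%). VS-4718 raised 8 and lowered 2 (20.4% and 18.9% of all genes) and defactinib raised 4 and lowered 1 (11.4% and 11%). GSK2256098 raised 3 (6.36% of all genes) and IN10018 raised 5 (6.44%), and neither lowered any. *Notch1*, a receptor that holds Schwann cells in the immature state, rose by 2.47 with GSK215, 2.59 with BSJ-04-0146 and 1.31 with VS-4718 on the log2 scale, and fell by 0.27 with PROTAC FAK degrader 1. *Sox9*, a neural crest factor, rose with PROTAC FAK degrader 1 (1.17), BSJ-04-0146 (1.62), GSK215 (1.04) and IN10018 (0.44). *Sox2*, a factor of immature cells that opposes *Egr2*, rose by 0.34 with GSK215 and fell by 0.56 with PROTAC FAK degrader 1. *Sox6*, an SOXD factor, rose by 1.29 with GSK215 and 0.52 with PROTAC FAK degrader 1.

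Of 20 other genes of myelin structure and synthesis, 15 were tested. GSK215 and BSJ-04-0146 each raised 8 and lowered 2, with a median log2 fold change of 0.53 and 0.85. VS-4718 raised 8 and lowered 1 (20.4% and 18.9% of all genes), and defactinib 5 and 1 (11.4% and 11%). GSK2256098 raised 3 and lowered 1 (6.36% and 6.09%), and IN10018 1 and 2 (6.44% and 6.85%). In this list PROTAC FAK degrader 1 raised 4 and lowered 5 of the 15, near the 34.1% and 32.7% of all genes, with a median of −0.30. Among all genes GSK215 raised 27.4% and lowered 27.2%, and BSJ-04-0146 27.7% and 26.9%. *Cnp*, an enzyme of the myelin cytoplasm, rose with all 7 drugs as *Mbp* did, from 0.16 with PROTAC FAK degrader 1 to 1.44 with BSJ-04-0146. *Cadm4*, an adhesion molecule of the internode, rose by 1.22 with GSK215 and fell by 0.39 with PROTAC FAK degrader 1, and *Cd9*, a tetraspanin, rose by 0.53 and fell by 0.49. *Mag*, an adhesion protein of the myelin membrane next to the axon, had no count in any library.

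Of 16 listed markers of immature and non-myelinating Schwann cells 10 were tested, and of 18 genes of neuregulin, p75 and GPR126 signalling 11. GSK215 raised 6 and lowered 2 of these markers (27.4% and 27.2% of all genes), and BSJ-04-0146 raised 5 and lowered 3 (27.7% and 26.9%). Defactinib raised 6 (11.4% of all genes), VS-4718 6 (20.4%) and GSK2256098 5 (6.36%). Each of these lowered 1 marker, where 11%, 18.9% and 6.09% of all genes were lower. IN10018 raised none and lowered 4 (6.44% and 6.85%). Of the markers, PROTAC FAK degrader 1 raised 1 and lowered 6, where it raised 34.1% and lowered 32.7% of all genes. With PROTAC FAK degrader 1 *Cdh2* (N-cadherin) fell by 1.44, *Nes* (nestin) by 1.06 and *Mcam* by 1.05. *Gfra1*, a receptor for glial cell line-derived neurotrophic factor, rose by 0.98 with GSK215 and fell by 0.55 with PROTAC FAK degrader 1. In the signalling list that degrader lowered 9 of the 11 and raised none, against 32.7% of all genes lower and 34.1% higher. Of these 11, GSK215 raised 7 and lowered 2, BSJ-04-0146 5 and 2, defactinib 6 and 1, VS-4718 4 and 2, GSK2256098 3 and 1, and IN10018 0 and 4, to be read against the shares of all genes just given for each drug. *Nrg1*, the ligand that acts through ErbB3, fell by 0.95 with GSK215 and 1.04 with BSJ-04-0146. Its log2 fold changes spanned 0.90 over the 7 drugs, so that its log2 difference from DMSO was below 0 with every drug. *Adgrg6*, the GPR126 receptor needed for myelination, fell by 0.96 with PROTAC FAK degrader 1, and *Dag1*, a laminin receptor, by 0.74.

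**Figure D5:**
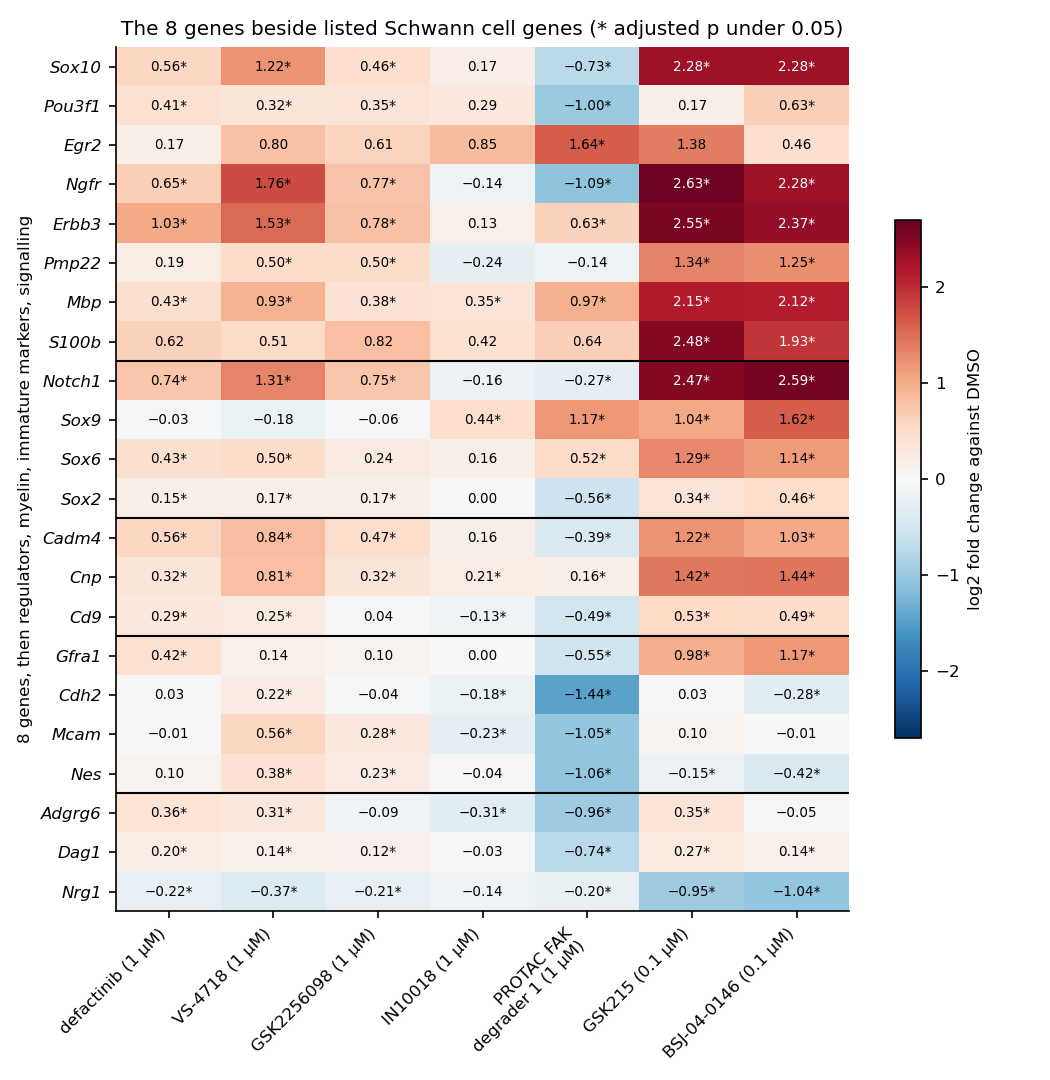
Log2 fold change against DMSO (colour and number) of the 8 genes and of listed Schwann cell genes, for the 7 drugs. Lines part the 8 genes, the regulators, the myelin genes, the immature markers and the signalling genes, and an asterisk marks an adjusted *P* under 0.05. *Notch1* and *Cnp* reach 2.59 and 1.44 with BSJ-04-0146, while *Cdh2* and *Nes* are at −1.44 and −1.06 with PROTAC FAK degrader 1.

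The labelled cell type was set against markers of other cells. *Sox10*, *Ngfr*, *Erbb3*, *Pmp22*, *Mbp* and *Pou3f1* were expressed in all 24 libraries. The macrophage markers *Ptprc*, *Adgre1* and *Itgam* had at most 1 count in any library, while *Aif1* had 2 to 10, *Csf1r* 3 to 20 and *Cd68*, a lysosomal protein, 65 to 239. The melanocyte markers *Dct*, *Tyr* and *Mlana* had at most 2, while *Pmel* had 7 to 23 and *Mitf* 119 to 374. Of the endothelial markers *Cdh5* and *Kdr* had at most 3, while *Pecam1* had 2 to 13 and *Tek* 0 to 10. Of the neuronal markers *Rbfox3* and *Elavl4* had at most 2, while *Tubb3*, a tubulin that other cells also make, had 49 to 124. The oligodendrocyte markers *Mobp* and *Mog*, whose cells also make *Mbp*, had at most 1 and 5, while *Myrf* had 10 to 36 and *Olig2* 3 to 36. *Pdgfra*, *Pdgfrb* and *Col1a1*, genes of fibroblasts and pericytes, were expressed at means of 15.9, 36.1 and 404 CPM, while *Lum* and *Rgs5* had no count.

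Summed over each list, some of these markers moved with the drugs. With PROTAC FAK degrader 1, with which *Sox10*, *Ngfr* and *Pou3f1* fell, the 5 melanocyte markers summed to 17.7 to 19.0 CPM against 6.77 to 6.97 under DMSO, carried by *Mitf* (log2 fold change 1.46). The 6 macrophage markers summed to 11.2 to 12.0 against 3.71 to 4.10 CPM, carried by *Cd68* (1.70). The 7 fibroblast and pericyte markers summed to 322 to 328 against 417 to 440 CPM, most of it *Col1a1* (mean 404 CPM over the 24 libraries). Of the 3 markers of this list that were tested, 1 rose and 2 fell (34.1% and 32.7% of all genes). The 4 oligodendrocyte markers summed to 0.840 to 1.29 against 1.40 to 1.94 CPM.

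With GSK215 and BSJ-04-0146, with which 5 and 6 of the 6 genes rose, the macrophage sums were 6.20 to 7.88 and 7.90 to 9.34 CPM, and the melanocyte sums 8.73 to 9.88 and 8.35 to 10.1 CPM, all above DMSO. The fibroblast and pericyte sum, most of it *Col1a1*, was 537 to 543 CPM with GSK215 and 404 to 443 with BSJ-04-0146. Of the 3 tested markers of that list GSK215 raised 3 (27.4% of all genes), and BSJ-04-0146 raised 2 and lowered 1 (27.7% and 26.9%). The oligodendrocyte sum overlapped DMSO with GSK215 and was 2.36 to 3.66 CPM with BSJ-04-0146. With VS-4718 the macrophage sum was 5.20 to 6.21 CPM, the fibroblast and pericyte sum 495 to 552 and the oligodendrocyte sum 2.05 to 2.36 CPM, each above DMSO. Defactinib and GSK2256098 gave macrophage sums of 4.58 to 5.28 and 4.28 to 4.60 CPM and fibroblast and pericyte sums of 470 to 539 and 458 to 501 CPM, above DMSO as well, while with IN10018 both sums overlapped DMSO. The oligodendrocyte sum with defactinib was 2.13 to 2.22 CPM, above DMSO, and the melanocyte sum with GSK2256098 was 5.62 to 6.39 CPM, below it. The 5 neuronal markers summed to 2.76 to 3.05 CPM under DMSO, and to 4.11 to 4.90 with VS-4718, 3.22 to 4.62 with PROTAC FAK degrader 1, 3.25 to 5.25 with BSJ-04-0146 and, also above every DMSO library, at most 5.25 with GSK215. *Tubb3*, the neuronal marker that was tested, rose by 0.62 with VS-4718, 0.70 with GSK215 and 0.64 with BSJ-04-0146 on the log2 scale. The 4 endothelial markers summed to between 0.209 and 0.790 CPM in all 24 libraries. The part of these markers in the changes of the 8 genes was not tested.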

How the data were processed

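RNA-seq was done on 24 libraries of MS03 cells, 8 groups of 3. The authors deposited unnormalized counts, the whole number of reads assigned to each Ensembl gene in each library. Per the labels, RNA was extracted with DNase treatment and libraries were poly(A)-selected. The submitters' processing notes name Trimmomatic 0.36, STAR 2.5.2b, featureCounts of Subread 1.5.2 and GRCm38. The annotation release and the strand setting are not given in the sources used here, so reads shared by overlapping genes cannot be assigned. Coordinates and exon lengths are from GENCODE M21 (GRCm38), which held 49056 of the 49315 identifiers, and upstream sequences are from RefSeq (GRCm38.p6).

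The counts were fitted with edgeR 4.0.16 in R 4.3.3 (TMM, filterByExpr, glmQLFit and glmQLFTest, 16 residual degrees of freedom), with all 24 libraries in 1 fit and no replicate block. Two-sided *P* values were corrected over the 16070 tested genes (Benjamini-Hochberg). CPM used the TMM library sizes. A gene tested with a mean under 50 counts per library was called low. Listed genes were named when they had the 4 widest ranges of log2 fold change in their list, a call with at least 1 drug and a mean of at least 5 CPM; macrophage, melanocyte, fibroblast and low myelin genes beyond that were named after their values were seen. Some items that these rules pick are not reported here. Similar patterns were taken as the 2 highest Pearson correlations over group means. Members and lists were chosen with earlier results of these data known. Alternatives were DESeq2 1.42.0, limma 3.58.1 on log2(CPM + 4), library totals, no filter, a replicate block, only the libraries compared, thinned libraries and leaving out each library. The edgeR fit alone was also run on simulated counts with known changes, and the outcome is not reported here. Replicates differed by more than counting noise (chi-square per degree of freedom 1.80 to 9.44 over 24 pairs), so none was counted as a copy. Whether *Nf2* exons are deleted cannot be read from counts per gene.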

Additional observations from a re-analysis of the deposited data

How the results depend on the processing

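The number of the 8 genes past the threshold stayed within 1.5 times the reported count under every alternative in 18 of the 19 comparisons. The exception was IN10018, with 1 gene reported and 2 in the fit of only the 6 libraries compared, and 1 to 2 when single libraries were left out. Of 1577 alternative values for 123 single results, 1533 kept direction and side of the threshold, 15 lost the call, 10 gained it and 19 changed sign, all of the last in results that had not passed. Differences of *S100b* and *Egr2* between drugs are in these counts only where they had passed. Against DMSO the other genes had 13 alternatives for each drug, *Egr2* had 11, and *S100b* had 12, or 13 with GSK215. In the remaining settings the low-count filter removed *Egr2* or *S100b*, so they could not be tested there and are not among the 1577. With thinned libraries *Erbb3* was at −0.018 (log2) for IN10018 against DMSO and *Pou3f1* at −0.0080 for GSK2256098 against VS-4718. With library totals *Pmp22* was at −0.020 for GSK2256098 against VS-4718, and *Egr2* (adjusted *P* = 0.0353, edgeR) and *Pou3f1* (log2 fold change 0.29, adjusted *P* = 0.0350) passed with GSK215. With single libraries left out, the log2 value of *Egr2* for defactinib against DMSO ran from −0.17 to 0.57 and that of *S100b* for VS-4718 against DMSO from −0.72 to 0.93. For GSK2256098 against defactinib *Mbp* ran from −0.097 to 0.0081 and *Pou3f1* from −0.15 to 0.0036, and for GSK2256098 against VS-4718 *Pmp22* ran from −0.039 to 0.065 and *Pou3f1* from −0.045 to 0.16. For IN10018 *Mbp* ran from −0.088 to 0.026 against GSK2256098 and *Pou3f1* from −0.11 to 0.096 against VS-4718, and *Sox10* ran from −0.062 to 0.043 for BSJ-04-0146 against GSK215. The cause was not tested. *Pou3f1* with GSK2256098 also lost its call with thinned libraries (log2 value 0.31) and limma (log2 value 0.23), *Pmp22* with defactinib gained one with thinned libraries (log2 value 0.27), and *Pou3f1* with IN10018 gained one in the fit of the 6 libraries (log2 value 0.29). On the log2(CPM + 4) scale changes of low genes are smaller by construction. The replicate number as a block changed no call, with 1 gene past the threshold for IN10018 and 7 in the test of any difference. Deviations of same-numbered libraries from their group means had a median correlation of −0.018, with a range of −0.49 to 0.44 over 84 pairs. Libraries of different number were not compared in this way. Depth limits what can be said of *S100b* and *Egr2*.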
